A study of Arabidopsis thaliana with 12 samples.

Results

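The 8 genes described here encode transcription factors of the photoperiod pathway and close relatives of them: CDF1 (AT5G62430), CDF2 (AT5G39660), CDF3 (AT3G47500), CDF5 (AT1G69570), CO (AT5G15840), COL1 (AT5G15850), COL2 (AT3G02380) and AT1G07050. They are 8 of the 33602 genes in the deposited count table, matched by gene identifier after the model suffix was dropped. They were chosen by their levels in these same libraries, with each allele of the mutated gene set against the wild type of its own kit. Their differences between mutant and wild type are therefore given as a description with errors and without p-values.

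RNA was sequenced from aerial parts of Arabidopsis thaliana seedlings at the age of 6 days, in 12 libraries with 3 in each of 4 groups. A stranded mRNA kit was used for the mutant tfIIfα1 and a wild type titled 1171WTCol3. The mutant tfIIfα2 and a wild type titled WTCol0 went through a stranded kit for total RNA in which ribosomal RNA is depleted. Both mutants carry an allele of the gene for TFIIFα, the large subunit of a general factor that works with RNA polymerase II at the start of transcription, and the kind of mutation is not given in the sources used here. All plants were kept for 3 days at 4 °C in the dark and then grown at about 21 °C in 16 h of light and 8 h of dark, on medium with 1% sucrose. The hour of harvest is not given in the sources used here. Each allele is a single line measured with a single kit, so allele, kit and wild type cannot be told apart where the 2 mutants differ. No label says that replicates came from separate cultures, so errors and p-values cover only the spread between these samples, which may be technical.

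CO protein, a B-box zinc finger factor with a CCT domain, turns on the florigen gene FT in phloem companion cells of leaves when light falls late in a long day. The CDF proteins are Dof-type zinc finger factors that hold down the transcription of CO and FT in the morning. Later in the day they are removed by the F-box protein FKF1 together with GI, and PRR proteins of the circadian clock repress the CDF genes. COL1 and COL2 are the nearest relatives of CO, and AT1G07050 is described in the deposited table as a CCT motif family protein.

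Depth ranged between 55915638 and 66711096 counts for mRNA. For total RNA it ranged between 33292996 and 37456773, and the nuclear genes took 12069295 to 14652749 of these. RAP74 (AT4G12610), the gene of TFIIFα, had 14.3, 16.5 and 15.9 CPM (counts scaled to the library size) in tfIIfα1 and 21.3, 21.2 and 18.4 CPM in wild type (log2 fold change -0.38 ± 0.08 SE, adjusted p = 0.00217, edgeR). It had 4.84, 6.03 and 5.78 CPM in tfIIfα2 and 8.06, 7.58 and 8.06 CPM in wild type (-0.51 ± 0.12 SE, adjusted p = 0.0659, edgeR), and passed with replicate number as a block (-0.52 ± 0.11 SE). The column headers of 2 tfIIfα1 libraries, called a and b here, name the other allele, and these libraries stood apart: 72.24% and 69.55% of their gene counts were even, against 57.61% to 61.48% in the other mRNA libraries. In total RNA 47.7% to 48.12% were even, less than in any mRNA library, and the reason was not tested. Defining genes of green tissue were abundant in all 12 libraries (4 of 4 at 1 CPM or more), and 3 seed genes summed to under 1 CPM in each library. Of 6 root genes, BGLU23 made up nearly all of the summed level of 1460 to 1600 CPM in tfIIfα1, 1330 to 1530 CPM in its wild type, 852 to 1110 CPM in tfIIfα2 and 583 to 862 CPM in its wild type. TET12 was at 0 in all mRNA libraries. Without BGLU23 the sums were 1.03 to 2.43 CPM in tfIIfα1 and 1.4 to 3.23 CPM in its wild type, and 1.01 to 1.54 CPM in tfIIfα2 and 0.185 to 0.558 CPM in its wild type. The part of root tissue in the results was not tested.

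CDF1, CDF2, CDF3, CDF5, COL1 and COL2 averaged higher in both mutants than in the wild type of the same kit, and AT1G07050 averaged lower in both. For CO, which gave the CONSTANS-like genes their name, the mutant and wild-type libraries overlapped in both comparisons. The largest fitted increase was that of COL1, at 2.38 times the wild type in tfIIfα1 and 2.32 times in tfIIfα2, and AT1G07050 was 3.11 times lower in tfIIfα1 and 6.64 times lower in tfIIfα2. All 8 genes passed the filter on low counts in both comparisons. In tfIIfα1 6 of them had every mutant library above every wild-type library and 1 had every mutant library below. Of the 20371 genes tested there, 24.2% lay apart with the mutant above and 25.2% with the mutant below. In tfIIfα2 4 of the 8 lay above and 1 below, against 13.1% and 15.6% of the 18863 genes tested. Since these comparisons were used to choose the genes, nothing is read from those counts. Over all tested genes the median log2 fold change was -0.002 in tfIIfα1, with 5% to 95% of values from -0.85 to 0.72, and 0 in tfIIfα2, with values from -0.62 to 0.71. In aerial parts sequenced whole, a change in the number of cells that express a gene and a change in the RNA per cell cannot be told apart.

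**Figure D1:**
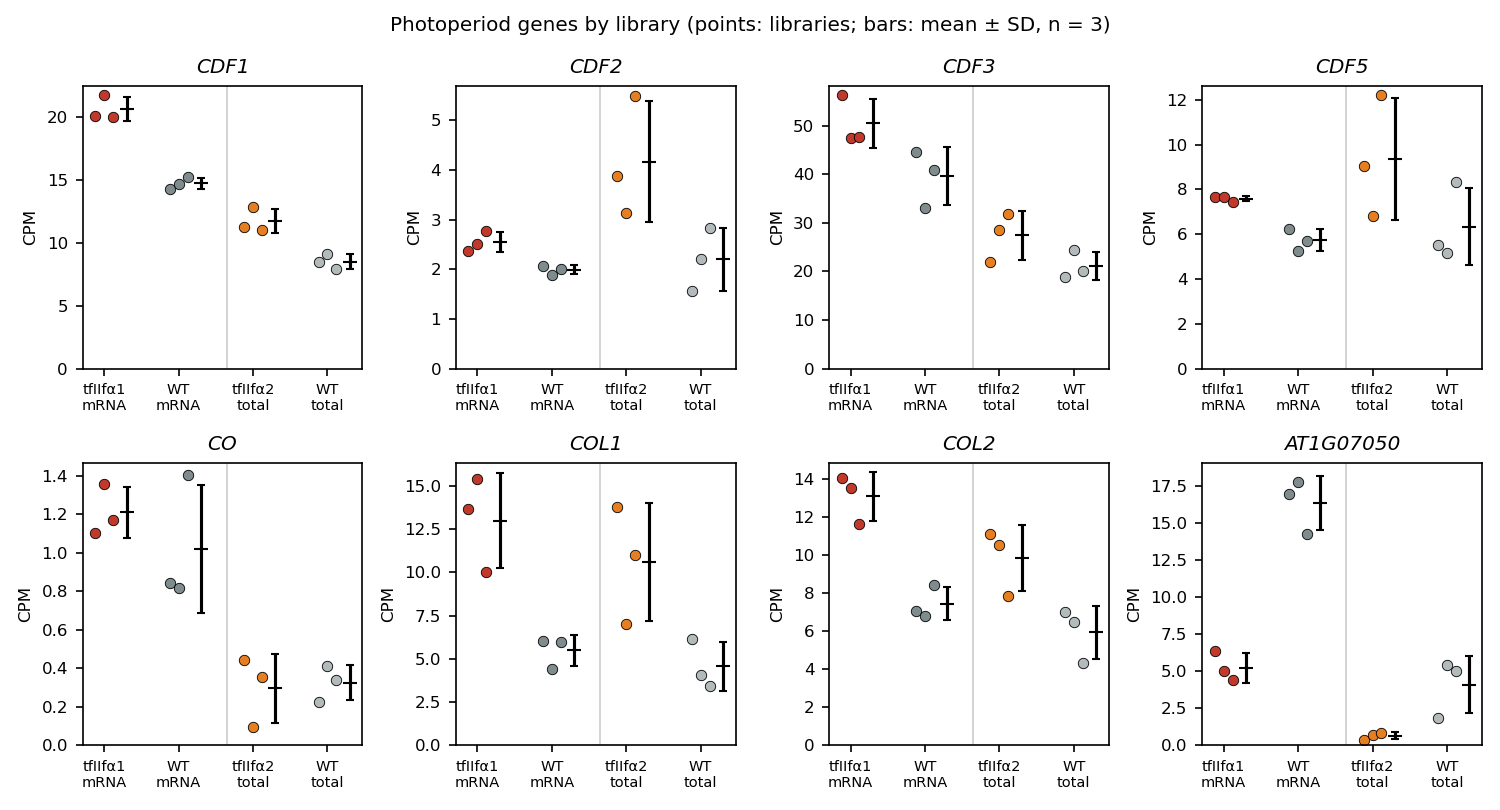
Level of each of the 8 genes in CPM (vertical axis, from 0) in the 3 libraries of each group, with tfIIfα1 and its wild type in mRNA libraries on the left and tfIIfα2 and its wild type in total RNA libraries on the right. Bars are mean ± SD, n = 3. CDF1, COL1 and COL2 lie above their wild type in every mutant library, AT1G07050 lies below, and the CO libraries overlap.

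CDF1, the best known of the CDF repressors of CO, had 20.1, 21.7 and 19.99 CPM in tfIIfα1 (libraries 1, a and b) and 14.3, 14.7 and 15.2 CPM in its wild type. In total RNA it had 11.2, 12.8 and 11.0 CPM in tfIIfα2 and 8.46, 9.08 and 7.9 CPM in wild type. Every mutant library of both alleles lay above every wild-type library of its kit. Its log2 fold change was 0.49 ± 0.07 (SE) in tfIIfα1 and 0.46 ± 0.11 in tfIIfα2, that is 1.4 and 1.38 times the wild type, and its replicates spread least among the 8 genes (SD of log2 CPM 0.057 in mRNA and 0.108 in total RNA libraries).

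CDF2, which represses CO alongside CDF1, was a low-level gene with 2.36, 2.5 and 2.77 CPM in tfIIfα1 and 2.06, 1.88 and 2.01 CPM in its wild type. It had 3.88, 3.13 and 5.49 CPM in tfIIfα2 and 1.56, 2.2 and 2.83 CPM in wild type. The groups did not overlap with either allele, but the lowest tfIIfα2 library lay only just above the highest wild-type library of its kit. This gave log2 fold changes of 0.36 ± 0.16 (SE) in tfIIfα1 and 0.93 ± 0.28 in tfIIfα2.

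CDF5, another CDF repressor of flowering, had 7.67, 7.65 and 7.46 CPM in tfIIfα1 and 6.22, 5.25 and 5.71 CPM in its wild type. It had 9.05, 6.82 and 12.2 CPM in tfIIfα2 and 5.53, 5.17 and 8.34 CPM in wild type. The mRNA groups lay apart, while in total RNA replicate 2 of tfIIfα2 lay below replicate 3 of wild type. The fitted log2 fold change was 0.41 ± 0.10 (SE) in tfIIfα1 and 0.56 ± 0.25 in tfIIfα2.

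CDF3, the most abundant of the 8 genes, had 56.3, 47.4 and 47.7 CPM in tfIIfα1 and 44.7, 33.1 and 40.9 CPM in its wild type. It had 21.9, 28.5 and 31.8 CPM in tfIIfα2 and 18.8, 24.4 and 20.2 CPM in wild type. The mRNA groups lay apart by a small margin, and in total RNA replicate 1 of tfIIfα2 lay below replicate 2 of wild type. Log2 fold changes were 0.35 ± 0.10 (SE) in tfIIfα1 and 0.38 ± 0.17 in tfIIfα2.

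Upstream sequences of CDF2 and CDF5 are shown because, alone among the 4 CDF genes, they matched any of the motifs searched here. Clock or light factors are known to bind these motifs, and other elements were not searched. The G-box CACGTG, bound by light-regulated factors, and the site AAAAATCT, bound by the clock factor CCA1, were searched on both strands together with the evening element AAAATATCT, which CCA1 and LHY bind. The windows are the 300 bases before the annotated start in the RefSeq annotation of TAIR10.1, read on the strand of the gene, at chr5:15878398-15878697 (+) for CDF2 and chr1:26163716-26164015 (-) for CDF5. Capitals mark the G-box in CDF2 and the CCA1 site in CDF5.
CDF2: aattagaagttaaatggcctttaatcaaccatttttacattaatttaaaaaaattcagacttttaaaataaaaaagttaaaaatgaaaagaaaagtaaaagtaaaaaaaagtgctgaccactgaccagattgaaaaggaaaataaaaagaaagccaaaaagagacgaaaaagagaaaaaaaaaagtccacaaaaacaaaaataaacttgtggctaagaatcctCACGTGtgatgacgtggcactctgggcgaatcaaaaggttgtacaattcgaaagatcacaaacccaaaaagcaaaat
CDF5: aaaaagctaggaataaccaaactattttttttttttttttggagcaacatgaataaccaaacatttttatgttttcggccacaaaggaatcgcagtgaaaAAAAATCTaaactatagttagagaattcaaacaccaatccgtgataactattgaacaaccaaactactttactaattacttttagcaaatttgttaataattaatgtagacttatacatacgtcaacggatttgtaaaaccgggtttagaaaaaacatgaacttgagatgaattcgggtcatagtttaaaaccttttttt
The G-box of CDF2 begins 77 bases before the start and the CCA1 site of CDF5 begins 200 bases before it. Over 1000 bases CDF5 also held 3 G-boxes, shown with 10 bases on either side because no other of the 8 genes had more than 1. They lie 875, 779 and 711 bases before the start, at chr1:26164575-26164600, chr1:26164479-26164504 and chr1:26164411-26164436, all read on the minus strand, with the G-box in capitals.
CDF5, 875 bases before the start: atattaaatcCACGTGtcggataatc
CDF5, 779 bases before the start: gaccaatccaCACGTGgtgtattaca
CDF5, 711 bases before the start: ggtcatgtgcCACGTGtttacacagc
Among 26726 promoters of the same annotation, 7.18% held a G-box within 300 bases and 14.9% within 1000 bases, and 7.99% and 21.2% held the CCA1 site. A match gives the letters present in the window and does not show that a factor is bound there.

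CO was close to the limit of detection. Its raw counts were 71, 83 and 64 in tfIIfα1 and 57, 48 and 91 in its wild type, and 17, 3 and 11 in tfIIfα2 and 9, 14 and 11 in wild type. This was 1.1, 1.36 and 1.17 CPM in tfIIfα1 and 0.841, 0.815 and 1.4 CPM in its wild type. In total RNA it was 0.44, 0.0947 and 0.353 CPM in tfIIfα2 and 0.226, 0.411 and 0.338 CPM in wild type. The groups overlapped with both alleles, and the highest mRNA library was wild-type replicate 3. The log2 fold change was 0.25 ± 0.27 (SE) in tfIIfα1, with a 95% interval of -0.28 to 0.77, and -0.10 ± 0.52 in tfIIfα2, with an interval of -1.11 to 0.92. Both intervals assume a normal distribution, and with 3 libraries in each group they may be too narrow. A difference of the size seen for CDF1 lies within both intervals, so these libraries do not exclude it for CO.

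COL1, which stands beside CO on chromosome 5, had 13.7, 15.4 and 10.03 CPM in tfIIfα1 and 6.05, 4.43 and 5.96 CPM in its wild type. It had 13.8, 7.01 and 11.0 CPM in tfIIfα2 and 6.15, 4.08 and 3.44 CPM in wild type. All 6 mutant libraries lay above all wild-type libraries of their kit, with replicate 2 of tfIIfα2 nearest to them. Its log2 fold change was 1.25 ± 0.15 (SE) in tfIIfα1 and 1.21 ± 0.29 in tfIIfα2. CO and COL1 lie on the same strand 3005 bases apart. AT5G15845, annotated on the opposite strand, overlaps both of them, and AT5G15843 on that strand overlaps CO.

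COL2, the other near relative of CO, had 14.1, 13.5 and 11.6 CPM in tfIIfα1 and 7.06, 6.81 and 8.43 CPM in its wild type. It had 11.1, 10.5 and 7.87 CPM in tfIIfα2 and 6.98, 6.46 and 4.34 CPM in wild type. Again no mutant library reached down to a wild-type library of its kit. Fitted log2 fold changes were 0.82 ± 0.10 (SE) in tfIIfα1 and 0.73 ± 0.21 in tfIIfα2, or 1.76 and 1.66 times the wild type.

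AT1G07050, for which the files give a domain and no function, was the only 1 of the 8 lower in both mutants. It had 6.36, 4.98 and 4.38 CPM in tfIIfα1 and 17.0, 17.8 and 14.3 CPM in its wild type. It had 0.362, 0.695 and 0.803 CPM in tfIIfα2, from raw counts of 14, 22 and 25, and 1.86, 5.41 and 5.01 CPM in wild type, from 74, 184 and 163. All mutant libraries lay below all wild-type libraries of their kit, and replicate 1 was the lowest of both total RNA groups. Its log2 fold change was -1.64 ± 0.13 (SE) in tfIIfα1 and -2.73 ± 0.47 in tfIIfα2.

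COL2 and AT1G07050 were the genes of the 8 with an evening element within 1000 bases of their start. These sequences are shown because LHY and CCA1, the clock factors that bind the element, rose in both mutants. COL2 averaged higher and AT1G07050 lower in both mutants, and the part of these factors in their levels was not tested. The 300 bases before the start of COL2 also overlap the annotated genes AT3G02390, AT3G02400 and AT3G02410. The element is in capitals with 10 bases on either side, on the gene's strand, at chr3:489638-489666 (-) for COL2 and chr1:2166109-2166137 (-) for AT1G07050, where it matches on the opposite strand. AT1G07050 also held the CCA1 site on the opposite strand, at chr1:2165720-2165747 (-).
COL2, evening element 189 bases before the start: ataagttaccAAAATATCTtcttgttact
AT1G07050, evening element 866 bases before the start: ttgttttctgAGATATTTTctttgtaatt
AT1G07050, CCA1 site 476 bases before the start: aatatctaacAGATTTTTcactccatct
Of the 26726 promoters 2.83% held the evening element within 300 bases and 7.29% within 1000 bases, against 1 and 2 of the 8 genes. CDF1, CDF3, CO and COL1 had none of the 3 motifs in these windows.

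**Figure D2:**
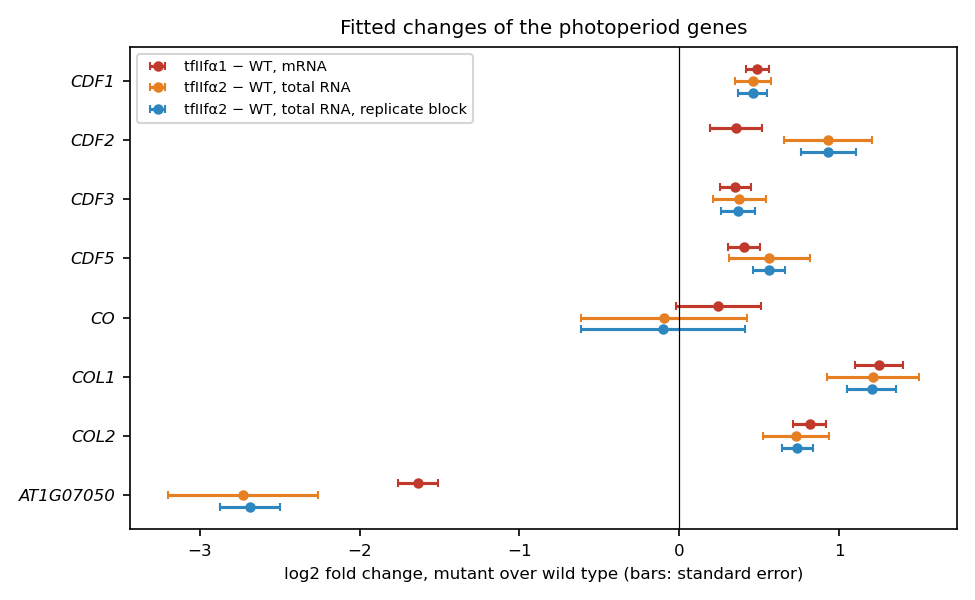
Fitted log2 fold change of mutant over wild type (horizontal axis) for the 8 genes, with bars of 1 standard error, in tfIIfα1 against wild type from mRNA, in tfIIfα2 against wild type from total RNA, and in tfIIfα2 with replicate number as a block. COL1 lies near 1.25 and 1.21, AT1G07050 at -1.64 and -2.73, and CO at 0.25 and -0.10 with bars that reach 0.

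Same-numbered libraries of total RNA deviated together from their group means, so the differences were also taken within each numbered pair. The labels do not say that the numbers pair samples. In log2 CPM, tfIIfα2 minus wild type was 0.40, 0.49 and 0.48 for CDF1, 0.67, 0.70 and 0.85 for COL2, and 1.16, 0.77 and 1.66 for COL1 in pairs 1, 2 and 3. It was -2.19, -2.86 and -2.56 for AT1G07050. Within pairs, CDF3 and CDF5 were also higher in all 3, with 0.22, 0.23 and 0.66 for CDF3 and 0.71, 0.40 and 0.55 for CDF5, although their groups overlap as a whole. CDF2 was higher by 1.29, 0.49 and 0.94. CO was 0.81, -1.62 and 0.05 and had no common direction. With replicate number as a block the fitted log2 fold change was 0.56 ± 0.10 (SE) for CDF5, 0.74 ± 0.10 for COL2 and -2.69 ± 0.19 for AT1G07050, with smaller errors than without the block.

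**Figure D3:**
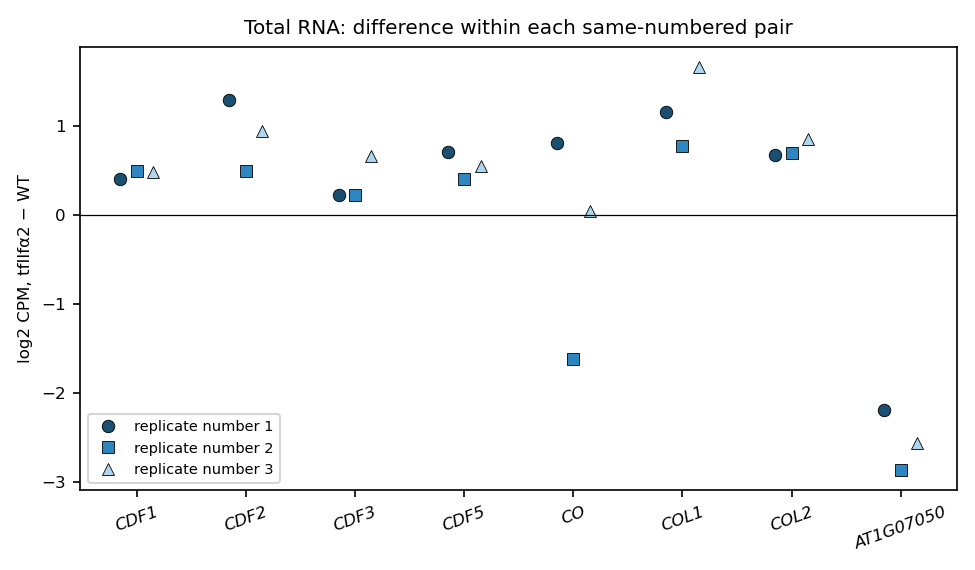
Difference in log2 CPM, tfIIfα2 minus wild type (vertical axis), within each same-numbered pair of total RNA libraries, for the 8 genes. Each point is 1 pair. CDF1 and COL2 show the tightest pairs, AT1G07050 lies between -2.86 and -2.19, and the CO pairs lie on both sides of 0.

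Per kilobase of the first gene model, CDF3 was the highest of the 8 genes in every group and CO the lowest. CDF3 had 26.6 ± 2.65 CPM per kb in tfIIfα1 and 20.8 ± 3.12 in its wild type, and 14.4 ± 2.66 in tfIIfα2 and 11.1 ± 1.52 in its wild type (SD, n = 3 each). CO had 0.45 ± 0.0493 in tfIIfα1, 0.379 ± 0.124 in its wild type, 0.11 ± 0.0667 in tfIIfα2 and 0.121 ± 0.0347 in its wild type. The place of AT1G07050 among the 8 differed between mutants and wild types. In tfIIfα1 it had 6.13 ± 1.19 CPM per kb and overlapped COL1 (7.68 ± 1.61) and COL2 (5.8 ± 0.567), while in its wild type it had 19.1 ± 2.14 and overlapped CDF3. In tfIIfα2 it had 0.725 ± 0.269 CPM per kb, below every library of CDF2 (1.82 ± 0.53), while in its wild type it had 4.79 ± 2.27 and overlapped CDF1 (5.95 ± 0.411), CDF5 (3.29 ± 0.899), COL1 (2.69 ± 0.834) and COL2 (2.63 ± 0.621). CDF1 was the second highest in tfIIfα1 at 14.4 ± 0.685 CPM per kb, clear of its neighbours, against 10.3 ± 0.314 in wild type. COL1, COL2 and CDF5 overlapped in wild-type mRNA libraries, at 3.23 ± 0.535, 3.29 ± 0.386 and 2.97 ± 0.254 CPM per kb, while in tfIIfα1 CDF5 at 3.94 ± 0.0586 lay below all libraries of both COL genes.

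Of the 8 genes, 4 share sequence with a partner on the opposite strand, and the strand setting of the authors' counting is not stated. CDF5 shares 1060 of the 1879 stretches of 50 bases in its first model with AT1G69572, and COL1 shares 1455 of 1649 with AT5G15845. CO shares 416 of 2642 with AT5G15843 and COL2 shares 329 of 2207 with AT3G02390, while CDF1, CDF2, CDF3 and AT1G07050 share none with any gene. For CDF5, COL1 and COL2, reads from these stretches may have been split between the partners. AT5G15843, the partner of CO, has no counts in the deposited table. AT1G69572, an annotated long noncoding RNA, had 1.99, 1.77 and 1.64 CPM in tfIIfα1 and 3.52, 2.85 and 3.02 CPM in its wild type. It had 0.621, 0.568 and 0.707 CPM in tfIIfα2 and 0.954, 0.881 and 1.48 CPM in wild type, so all mutant libraries lay below their wild type, opposite to CDF5. Its log2 fold change was -0.80 ± 0.17 (SE, adjusted p = 0.00152, edgeR) in tfIIfα1 and -0.80 ± 0.28 (adjusted p = 0.15, edgeR) in tfIIfα2. AT5G15845, opposite COL1, had 1.91, 1.87 and 1.42 CPM in tfIIfα1 and 1.5, 1.27 and 0.926 CPM in its wild type, and 0.957, 0.474 and 0.418 CPM in tfIIfα2 and 0.427, 0.588 and 0.646 CPM in wild type. The groups of AT5G15845 overlapped with both alleles, at log2 fold changes of 0.49 ± 0.23 (SE, adjusted p = 0.11, edgeR) in tfIIfα1 and 0.18 ± 0.38 (adjusted p = 0.819, edgeR) in tfIIfα2.

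**Figure D4:**
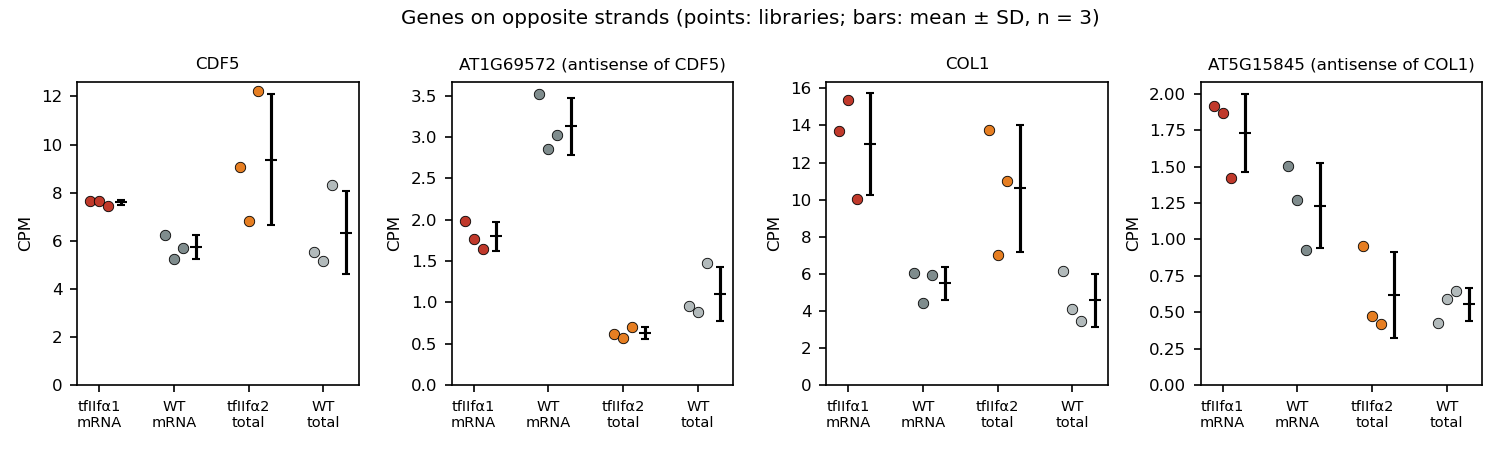
Level in CPM (vertical axes, from 0, each with its own range) of CDF5 and COL1 and of the annotated genes on their opposite strands, in the 3 libraries of each group, with bars of mean ± SD, n = 3. CDF5 is higher and AT1G69572 lower in the tfIIfα1 libraries than in wild type, and AT5G15845 overlaps between the groups.

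Without libraries a and b, the remaining tfIIfα1 library gave the same direction for all 8 genes. The log2 fold change was then 0.45 for CDF1, 0.25 for CDF2, 0.51 for CDF3, 0.42 for CDF5, 0.11 for CO, 1.32 for COL1, 0.92 for COL2 and -1.36 for AT1G07050. The tfIIfα1 value of CDF2, the lowest CDF gene, was 0.36 with all libraries. Markers of phloem companion cells, where CO and FT act, summed to 237 to 273 CPM in tfIIfα1 and 307 to 325 CPM in its wild type, and to 118 to 161 CPM in tfIIfα2 and 110 to 160 CPM in its wild type. Of these 2 genes, SUC2, a sucrose carrier, fell in tfIIfα1 by 0.59 ± 0.07 on the log2 scale (SE, adjusted p = 1.64e-05, edgeR), and AHA3 averaged 140.0 CPM in tfIIfα1 and 143.0 CPM in wild type. The part of companion cells in the levels of the 8 genes was not tested.

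Among 15951 genes compared, those whose pattern over the 12 libraries ran closest to CDF1 were AT2G26500, annotated as cytochrome b6f subunit petM, AT4G23940, an FtsH protease family gene, and ZDP, a phosphoesterase. Their log2 CPM, centred on the wild type of each kit, differed from that of CDF1 by a mean of 0.04, 0.043 and 0.046, against a median of 0.31 over all genes compared. For AT1G07050 the closest were AT4G32340, RIBA2, a riboflavin synthesis gene, and AT1G56300, at 0.283, 0.31 and 0.34, against a median of 1.236. For CO they were EXL1, AT4G22513 and AT1G05135, at 0.216, 0.217 and 0.228, against a median of 0.41. Genes picked as closest lie below the median by that choice, so the medians give only a scale. CO averaged 0.296 CPM in tfIIfα2 and 0.325 CPM in its wild type, below the 1 CPM asked of the genes compared. Its pattern there rests on few counts. Within the 8 genes, CDF1 and CDF3 were closest at 0.17, followed by CDF2 and CDF5 at 0.18, and COL1 and AT1G07050 were farthest apart at 1.964.

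The other genes of the pathway were taken from 10 lists with 70 genes in all. In tfIIfα1 9 of the 63 tested genes rose and 24 fell (adjusted p under 0.05, edgeR), with a median log2 fold change of -0.10, while 18.7% of all tested genes rose and 19.6% fell. In tfIIfα2 3 of 57 rose and 6 fell, with a median of -0.04, while 1.48% of all tested genes rose and 1.72% fell. With replicate number as a block 6 of the 57 rose and 13 fell, against 9.56% and 9.18% of all genes, and the 9 genes called without the block were among them. These 9 were LHY, CCA1, COL7, APRR3, ADO3, COL10, COL13, SOC1 and GI. In tfIIfα2 the number called was 9 without wild-type replicate 1, where APRR1 was called and COL7 was not. It was 3 without tfIIfα2 replicate 3, and 2 without any other single library, and LHY and APRR3 were called in all of these fits. In 1 fit over 12 libraries 15 of the pathway genes were called in tfIIfα1, and ADO2, ATCOL4, AT5G53420, AT5G14370, CIA2, TCP4, SPA3, COP1, CRY2, RAV2, SNZ and SOC1 were not among them. The difference between the alleles passed the test for 1 of 62 genes, NFYB3, against 0.772% of all genes, so the other genes called with 1 allele only are not shown to differ between them.

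**Figure D5:**
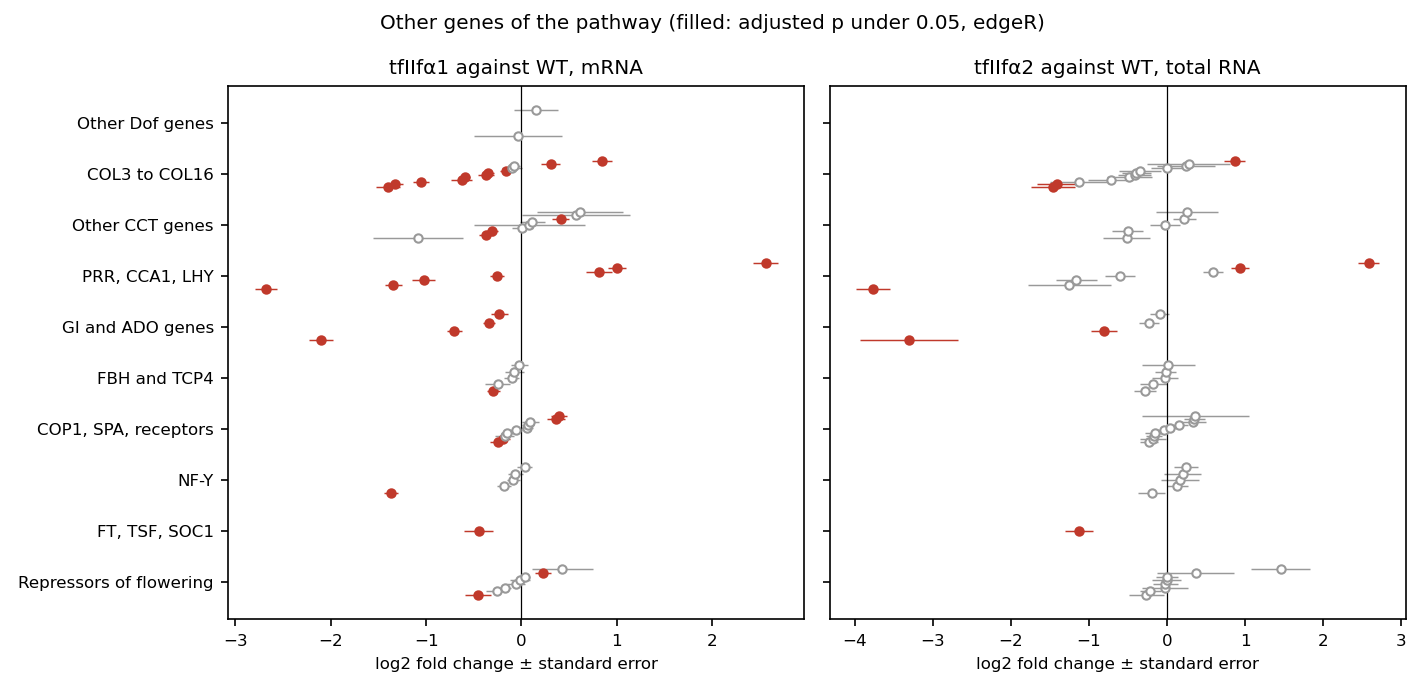
Fitted log2 fold change of mutant over wild type (horizontal axes, with a different range in each panel) for the tested genes of the 10 pathway lists, with bars of 1 standard error; filled points have an adjusted p under 0.05 in edgeR. LHY and COL7 lie on the right and APRR3, ADO3, COL10 and COL13 on the left in both panels.

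Of the 4 genes whose proteins act in the removal of CDF proteins, all fell in tfIIfα1, where 19.6% of all tested genes fell. In tfIIfα2 ADO3 and GI fell, against 1.72% of all tested genes, and ADO1 and ADO2 did not pass. The median of the list was -0.52 in both on the log2 scale. ADO3, the deposited symbol of FKF1, had 7.08, 4.62 and 5.4 CPM in tfIIfα1 and 25.9, 25.7 and 21.9 CPM in its wild type, and 0.362, 0.695 and 1.8 CPM in tfIIfα2 and 3.84, 10.02 and 14.0 CPM in wild type. All mutant libraries lay below the wild type of their kit, and ADO3 fell in tfIIfα1 (-2.10 ± 0.13 on the log2 scale, SE, adjusted p = 2.38e-08, edgeR) and in tfIIfα2 (-3.31 ± 0.63, adjusted p = 0.0391). GI, its partner, fell in tfIIfα1 (-0.71 ± 0.08, adjusted p = 7.54e-06, edgeR) and in tfIIfα2 (-0.81 ± 0.16, adjusted p = 0.0449). Both tfIIfα2 calls were lost without any 1 library other than wild-type replicate 1 (ADO3 -4.16 to -2.89, GI -0.90 to -0.70). The F-box relatives ADO1 (ZTL) and ADO2 of FKF1 fell in tfIIfα1, at -0.34 ± 0.07 (adjusted p = 0.00096, edgeR) and -0.23 ± 0.09 (adjusted p = 0.0484). The call of ADO2 was lost, at -0.16 to -0.25, without any 1 of tfIIfα1 libraries 1 and a and wild-type replicates 1, 2 and 3, and also with RLE size factors (-0.226), in DESeq2 (-0.226) and in 1 fit over 12 libraries (-0.219).

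All 7 clock genes of the list passed in tfIIfα1, 3 higher and 4 lower, against 18.7% and 19.6% of all tested genes. In tfIIfα2 2 rose and 1 fell, against 1.48% and 1.72%, and with the block 3 rose and 4 fell, against 9.56% and 9.18%. LHY, a morning clock repressor, had 14.2, 11.7 and 14.4 CPM in tfIIfα1 and 2.11, 1.95 and 2.73 CPM in its wild type, and 22.8, 22.2 and 23.6 CPM in tfIIfα2 and 4.4, 3.23 and 3.75 CPM in wild type. It rose by 2.56 ± 0.13 on the log2 scale (SE, adjusted p = 8.95e-09, edgeR) in tfIIfα1 and by 2.59 ± 0.14 (adjusted p = 0.000819) in tfIIfα2, with no overlap between mutant and wild type. Its partner CCA1 rose by 1.01 ± 0.10 (adjusted p = 1.87e-06, edgeR) in tfIIfα1 and by 0.94 ± 0.11 (adjusted p = 0.0174) in tfIIfα2, a call lost without tfIIfα2 replicate 1 or 2 or wild-type replicate 2 or 3 (0.89 to 0.93). APRR3, a pseudo-response regulator, fell in tfIIfα1 (-2.68 ± 0.12, adjusted p = 3.48e-09, edgeR) and in tfIIfα2 (-3.77 ± 0.22, adjusted p = 0.00138). APRR1 (TOC1), the evening member of that family, fell in tfIIfα1 (-1.34 ± 0.09, adjusted p = 4.37e-08, edgeR), had -1.16 ± 0.27 in tfIIfα2 (adjusted p = 0.0612, edgeR) and passed there with the block at -1.10 ± 0.17. APRR9, APRR5 and APRR7 of that family are named here after their values were seen. APRR9 went the other way, at 0.81 ± 0.14 in tfIIfα1 (adjusted p = 0.000292, edgeR). In tfIIfα2 APRR9 had 0.59 ± 0.13 (adjusted p = 0.0566, edgeR) and passed with the block at 0.58 ± 0.10. APRR5 (-1.03 ± 0.12, adjusted p = 1.63e-05, edgeR) and APRR7 (-0.25 ± 0.07, adjusted p = 0.0145) fell in tfIIfα1. The part of the clock genes in the levels of the 8 genes was not tested.

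Of 12 remaining CONSTANS-like genes tested, 2 rose and 8 fell in tfIIfα1 (median -0.36), against 18.7% and 19.6% of all tested genes. In tfIIfα2 1 rose and 2 fell (median -0.40), against 1.48% and 1.72%, or 1 and 5 with the block, against 9.56% and 9.18%. COL7, which acts in shoot branching and shade, rose by 0.85 ± 0.11 (SE, adjusted p = 2.56e-05, edgeR) in tfIIfα1 and by 0.87 ± 0.13 (adjusted p = 0.0267, edgeR) in tfIIfα2. COL10 fell in tfIIfα1 (-1.33 ± 0.09, adjusted p = 6.6e-08, edgeR) and in tfIIfα2 (-1.41 ± 0.26, adjusted p = 0.0367). COL13 fell in tfIIfα1 (-1.05 ± 0.08, adjusted p = 1.91e-07, edgeR) and in tfIIfα2 (-1.46 ± 0.28, adjusted p = 0.0415). COL9, a repressor of CO and FT, fell in tfIIfα1 (-1.40 ± 0.13, adjusted p = 1.08e-06, edgeR), had -1.13 ± 0.37 in tfIIfα2 (adjusted p = 0.129, edgeR) and passed there with the block at -1.14 ± 0.14. ATCOL4 fell in tfIIfα1 (-0.59 ± 0.06, adjusted p = 2.48e-06, edgeR). In tfIIfα2 the call of COL7 was lost without any 1 of the 6 libraries (0.78 to 0.93), and those of COL10 (-1.54 to -1.20) and COL13 (-1.65 to -1.30) without any 1 other than wild-type replicate 1.

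Of 9 further genes with a CCT domain, the domain that marks AT1G07050, 1 rose and 2 fell in tfIIfα1, shares close to the 18.7% and 19.6% of all tested genes. Log2 fold changes of the 9 ranged from -1.09 to 0.61 there, and 3 of them were lower with an unadjusted p under 0.05. The gene at -1.09 did not pass (adjusted p = 0.0819, edgeR). AT5G53420 rose (0.41 ± 0.09 SE, adjusted p = 0.00194, edgeR), AT5G14370 fell (-0.37 ± 0.08, adjusted p = 0.00195) and CIA2, an activator of genes for chloroplast proteins, fell (-0.31 ± 0.06, adjusted p = 0.00122). None of 5 passed in tfIIfα2 in edgeR, 1 had an unadjusted p under 0.05, and CIA2 passed with the block at -0.50 ± 0.10. Of the 3 further Dof genes related to the CDF genes, 2 were tested in tfIIfα1 and none passed or had an unadjusted p under 0.05, and none was above the count filter in tfIIfα2.

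Among 5 activators of CO transcription, 1 fell in tfIIfα1, TCP4 (-0.29 ± 0.07 SE, adjusted p = 0.00297, edgeR). That share is close to the 19.6% of all tested genes that fell. None of the 5 passed in tfIIfα2 or had an unadjusted p under 0.05 there. Of 10 genes that set the stability of CO protein, 2 rose and 2 fell in tfIIfα1. These shares are close to the 18.7% and 19.6% of all tested genes. SPA3 and SPA4, which act with COP1 against CO, rose in tfIIfα1 by 0.40 ± 0.08 (adjusted p = 0.00158, edgeR) and 0.37 ± 0.10 (adjusted p = 0.00766, edgeR). COP1, the ubiquitin ligase itself, fell there (-0.25 ± 0.08, adjusted p = 0.0245, edgeR), as did CRY2, a blue light receptor (-0.20 ± 0.07, adjusted p = 0.0419). The COP1 call was lost without wild-type replicate 1 or 2 or library a (-0.18 to -0.23), and the CRY2 call without wild-type replicate 2 or 3 or library 1 or a (-0.14 to -0.22). None of the 10 passed in tfIIfα2 in edgeR and 1 had an unadjusted p under 0.05, and SPA3 passed there with the block at 0.33 ± 0.08. NFYB3, a subunit of the NF-Y complex that recruits CO to FT, fell in tfIIfα1 (-1.37 ± 0.07, adjusted p = 8.72e-09, edgeR) and had -0.20 ± 0.17 in tfIIfα2 (adjusted p = 0.534, edgeR). NFYB3 lies on chromosome 4 between AT4G12640 and AT4G15550, where log2 fold changes had a median of -1 over 271 tested genes in tfIIfα1 and of -0.03 over 240 in tfIIfα2, and none of the 8 photoperiod genes is on chromosome 4.

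Transcripts of FT could not be compared. FT had raw counts of 0, 2 and 2 in tfIIfα1 and 2, 4 and 6 in its wild type, and 1, 0 and 0 in tfIIfα2 and 1, 0 and 2 in wild type, and its relative TSF was as scarce. SOC1, a floral integrator downstream of FT, had 12.3, 8.91 and 8.92 CPM in tfIIfα1 and 13.0, 17.3 and 10.9 CPM in its wild type, and 3.8, 4.45 and 4.53 CPM in tfIIfα2 and 7.33, 9.02 and 11.5 CPM in wild type. The mRNA groups overlapped and the total RNA groups did not. SOC1 fell in tfIIfα1 (-0.45 ± 0.15 on the log2 scale, SE, adjusted p = 0.029, edgeR) and in tfIIfα2 (-1.13 ± 0.18, adjusted p = 0.0296). The tfIIfα1 call was lost without wild-type replicate 2 (-0.26), library a (-0.37) or library b (-0.37), and without both a and b the value was -0.16. In tfIIfα2 the SOC1 call was lost, at -0.94 to -1.17, without any 1 library other than wild-type replicate 1. Of 8 repressors of FT, 1 fell and 1 rose in tfIIfα1, smaller shares than the 19.6% and 18.7% of all tested genes. RAV2 fell (-0.45 ± 0.14, adjusted p = 0.0159, edgeR) and SNZ rose (0.23 ± 0.08, adjusted p = 0.0359) in tfIIfα1. The RAV2 call was lost without wild-type replicate 3 (-0.29) or library 1 (-0.30), and the SNZ call without wild-type replicate 1 or 3 or library 1 or a (0.17 to 0.23). None of the 8 passed in tfIIfα2 in edgeR and 1 had an unadjusted p under 0.05, FLC, named here after its values were seen, which had 1.46 ± 0.38 (adjusted p = 0.0813, edgeR) and passed with the block at 1.47 ± 0.15.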

How the data were processed

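Groups came from the labels. Per the labels' protocols, either a stranded mRNA kit or a stranded kit with ribosomal RNA depletion was used. The submitters' processing notes list TAIR10 and the tools FastQC 0.11.5, Bowtie2 2.2.9 and edgeR 3.20.1 without saying what each did. The counting tool and its strand setting are not given in the sources used here. The authors deposited raw counts per gene, which were analysed, and group means of normalized values per the file headers, a score used only to check columns. The headers of 2 tfIIfα1 columns name tfIIfα2, but their run prefix occurs only in mRNA titles, and the deposited tfIIfα1 mean differed from a weighted sum of the 3 columns by a median of 0.03% over 15451 genes, against 135% for the tfIIfα2 columns. Another 6 columns of counts match no sample and were left out.

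The comparison within each kit used edgeR 4.0.16 under R 4.3.3 (filterByExpr, TMM, quasi-likelihood test), with Benjamini-Hochberg adjustment over all tested genes and a threshold of 0.05. A standard error is the size of the log2 fold change divided by the root of F. CPM rests on TMM library sizes. The alleles were compared by an interaction term in 1 fit over 12 libraries. The pipeline was tested on simulated data. Replicates differed beyond sampling noise, with a chi-square of 10.14 to 49.76 per degree of freedom. The labels do not say that the numbers in the titles of the total RNA libraries pair them, or what the numbers stand for. The pairing was taken from these same libraries, so a pass with the block is not independent of the fit without it. Deviations from group means correlated at 0.64, 0.23 and 0.53 over genes for numbers 1, 2 and 3, each library best with its own number. Of the lists, the text names FT, SOC1, GI and FKF1, and up to 4 genes that passed in each list and comparison by smallest p. FLC, APRR9, APRR5 and APRR7 were named after their values were seen. The 8 genes, the lists and the motifs were chosen with earlier results on these data known. Likeness was measured against genes tested in both comparisons with a mean of at least 1 CPM in each kit. Lengths, neighbours and sequences came from RefSeq TAIR10.1, which matched 32835 of 33602 identifiers. Alternatives included DESeq2 1.42.0, RLE factors, other filters, a replicate block and leaving out each library.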

Additional observations from a re-analysis of the deposited data

Results flagged for a closer look

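NFYB3 was the only pathway gene that passed the test of the interaction of allele and kit, in which allele, kit and wild type cannot be told apart. Its log2 fold change was higher in tfIIfα2 than in tfIIfα1 by 1.16 ± 0.16 (SE, adjusted p = 0.0033, edgeR). It had 19.5, 21.7 and 21.1 CPM in tfIIfα1 and 50.9, 52.8 and 57.1 CPM in its wild type, and 2.3, 2.49 and 3.05 CPM in tfIIfα2 and 3.19, 3.17 and 2.61 CPM in its wild type. Its neighbours between AT4G12640 and AT4G15550 had a median log2 fold change of -1 in tfIIfα1 and -0.03 in tfIIfα2. By identifier, RAP74 (AT4G12610) comes shortly before this stretch. The part of the stretch in the NFYB3 value was not tested.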

How the results depend on the processing

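The 8 photoperiod genes kept their direction in every alternative except CO in tfIIfα2, which had the opposite sign in 2 of 12 (range -0.522 to 0.3). COL1 stayed between 1.115 and 1.405 in tfIIfα1 and between 0.974 and 1.498 in tfIIfα2, and AT1G07050 between -1.80 and -1.36 in tfIIfα1 and between -3.085 and -2.44 in tfIIfα2. With replicate number as a block tfIIfα2 had 3535 called genes, against 603 without it, and 19 pathway genes against 9, and all 603 were among the 3535. No paired analysis was possible for tfIIfα1 because 2 of its 3 columns carry no clear replicate number. In 1 fit over 12 libraries tfIIfα1 had 4329 called genes against 7820, and 15 pathway genes against 33, and tfIIfα2 had 2926 and 14. DESeq2 called 1345 genes in tfIIfα2, and 339 against 159 for the difference between the alleles. With only the tfIIfα1 column whose header names that allele, 4838 genes and 28 pathway genes (9 higher, 19 lower) were called, with the lone mutant library assumed to vary like the wild-type libraries, the only source of the spread. Leaving out 1 library at a time gave 6351 to 7039 called genes in tfIIfα1 (27 to 31 of the pathway), 4 to 169 in tfIIfα2 (2 to 9) and 108 to 146 for the difference (1 throughout). For the difference alone this setting was added after the data were seen. The tfIIfα2 count was 4 without wild-type replicate 2 and 169 without wild-type replicate 1. In tfIIfα2, where they were not called, 4 genes crossed 0 in such fits: AT5G14370 (-0.145 to 0.147), TCP4 (-0.278 to 0.028), RAV2 (-0.446 to 0.148) and AT5G53420 (-0.112 to 0.812). The cause of these changes was not tested. RLE factors, no count filter, a filter of 1 CPM and leaving out organelle genes moved no count of calls by more than 1.5 times.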
